A study of Mus musculus with 6 samples.

Results

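The genes described here belong to the fibroblast growth factor (FGF) system: the ligands and intracellular factors named Fgf with a number, the receptors Fgfr1 to Fgfr4 and Fgfrl1, and the feedback and response genes Spry1 to Spry4, Spred1, Spred2, Dusp6, Etv4 and Etv5. They were defined by symbol, in a choice made with earlier results of these data known. Of the 19938 genes compared, 36 were members, each read from the probe set with the highest mean among those that carry exactly 1 symbol. The samples were ascending aorta (3 arrays) and descending aorta (3 arrays). Both segments came from untreated wild-type mice of the C57BL/6 background at the age of 13.5 days postcoitum, and the titles number the arrays within a segment as biological replicates. The series set out to find expression profiles tied to embryonic origin, and the smooth muscle of the ascending aorta comes largely from cardiac neural crest and that of the descending aorta from mesoderm. The labels name whole dissected vessel segments and give no litter, number of embryos or pool for an array, so p-values measure only the spread between these samples. Values are log2 expression after the authors' RMA processing, and differences are ascending minus descending on that scale.

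FGF ligands are secreted proteins that bind receptor tyrosine kinases together with heparan sulfate and switch on the Ras and ERK cascade. ERK activity induces the Ets factors Etv4 and Etv5 and the inhibitors Dusp6, Sprouty and Spred, so these genes serve as a readout and a brake of the pathway. In the embryo, Fgf8 and Fgf10 are known from the second heart field and pharyngeal arches, the tissues that build the outflow tract beside the ascending aorta.

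No FGF gene passed the test over all 6 arrays (limma, adjusted p threshold 0.05), against a background of 0% of all genes. The largest difference was that of Fgf7, a growth factor that mesenchyme sends to epithelium, which had lower values on all 3 ascending arrays than on any descending array. Fgf5 was higher on ascending replicates 1 and 2, and Fgf16 and the ERK phosphatase gene Dusp6 were lower on them, but ascending replicate 3 lay with the descending arrays for these 3 genes. A difference of at least 0.3 was reached by 5 members (13.9%, against 9.6% of all genes), all of them Fgf genes except Dusp6. When ascending replicate 3 was left out, Fgf7 and Dusp6 fell and Fgf5 rose in ascending aorta, and no other member passed.

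The promoter sequences of these 3 genes are shown because they are the members that passed in that fit. Each runs from 250 bases before to 50 bases after the annotated start, on the gene's strand (RefSeq, GRCm38.p6), and 26 of the 36 members had an entry. Capitals mark matches on either strand to 4 short words. The Ets-type core was searched as CCGGAA and the GC box as GGGCGG. The TATA box was searched as TATAAA. The AP-1 site was searched as TGACTCA, and overlaps between words were allowed.
Fgf7, chr2:126034408-126034707, plus strand: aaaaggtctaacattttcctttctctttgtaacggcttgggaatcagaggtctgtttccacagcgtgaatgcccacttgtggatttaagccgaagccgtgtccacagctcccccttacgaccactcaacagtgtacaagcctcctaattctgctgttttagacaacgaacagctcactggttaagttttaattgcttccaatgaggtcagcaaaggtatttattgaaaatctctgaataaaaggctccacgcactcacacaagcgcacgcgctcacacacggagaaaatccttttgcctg
Fgf5, chr5:98253934-98254233, plus strand: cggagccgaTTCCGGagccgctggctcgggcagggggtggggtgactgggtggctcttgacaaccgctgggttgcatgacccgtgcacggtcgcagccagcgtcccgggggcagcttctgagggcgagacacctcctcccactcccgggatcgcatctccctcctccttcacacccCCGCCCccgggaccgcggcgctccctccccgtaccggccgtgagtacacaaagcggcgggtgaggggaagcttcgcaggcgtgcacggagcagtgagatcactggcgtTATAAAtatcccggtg
Dusp6, chr10:99262981-99263280, plus strand: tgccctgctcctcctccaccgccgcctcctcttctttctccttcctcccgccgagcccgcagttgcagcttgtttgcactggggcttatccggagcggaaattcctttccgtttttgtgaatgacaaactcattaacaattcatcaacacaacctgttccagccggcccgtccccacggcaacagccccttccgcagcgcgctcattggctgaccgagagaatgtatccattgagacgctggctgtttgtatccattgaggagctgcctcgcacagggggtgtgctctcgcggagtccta
The Fgf7 and Dusp6 windows hold none of these 4 words, whereas the Fgf5 window holds 1 match each to the Ets core, the GC box and the TATA box. Guanine and cytosine make up 45.7% of the Fgf7 window, 68.3% of the Fgf5 window and 57.3% of the Dusp6 window. The median is 63.2% over the 34 promoters of the 26 members and 52.7% over all 32851 promoters of this length. The Ets core occurs in 5 of the 34 member promoters (Fgf5, Fgf12, Fgfr4, Fgfrl1 and Spry2) and in 14.9% of all promoters. The GC box occurs in 22 of the 34 member promoters, from 18 of the 26 members, and in 35.7% of all promoters. The TATA box occurs in 3 of the 34 and in 13.6% of all promoters, and the AP-1 word in 1 of the 34 and in 5.2%. These are matches of letters in a short window and describe no binding.

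The arrays of ascending aorta did not lie together, which bears on every value given here. Across all genes, ascending replicate 3 correlated with the descending arrays at Pearson's r of 0.993 to 0.998 and with ascending replicates 1 and 2 at 0.991 and 0.986, where genes are not independent replicates. Array medians lay between 7.14 and 7.22. The smooth muscle list, which holds Acta2, Tagln and Myh11, averaged 10.3 to 10.8 in ascending and 10.4 to 10.5 in descending aorta. The mean of that list thus lay above the array medians in both segments, which does not show the level of each marker. Results are given with and without ascending replicate 3. Since that array was picked out from the data and not from a label, p-values without it are likely too small.

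Of the 36 members, 9 had a higher and 27 a lower mean in ascending aorta, that is 25% higher where 43.8% of all genes were higher. The median difference was -0.08 over the members and -0.02 over all genes. The count of higher members stayed at 9 with median-centred arrays (45.8% of all genes higher). It moved to 15 after repeated quantile normalization (47.2%) and to 15 without ascending replicate 3 (45.4%). At an unadjusted p under 0.05 there were 2 members, or 5.56%, against 9.29% of all genes. Ascending and descending values did not overlap for 5 members, or 13.9%, against 14.8% of all genes. These 5, Fgf7, Fgf2, Fgf3, Fgf21 and Fgf23, were all lower in ascending aorta, a direction in which 8.95% of all genes separated. Fgf3, Fgf21 and Fgf23 were dim, with values below the array medians on all arrays. Over the 6 arrays, 25 of the 36 members kept within a range of 0.5, and the median range was 0.40 over the members and 0.35 over all genes.

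**Figure D1:**
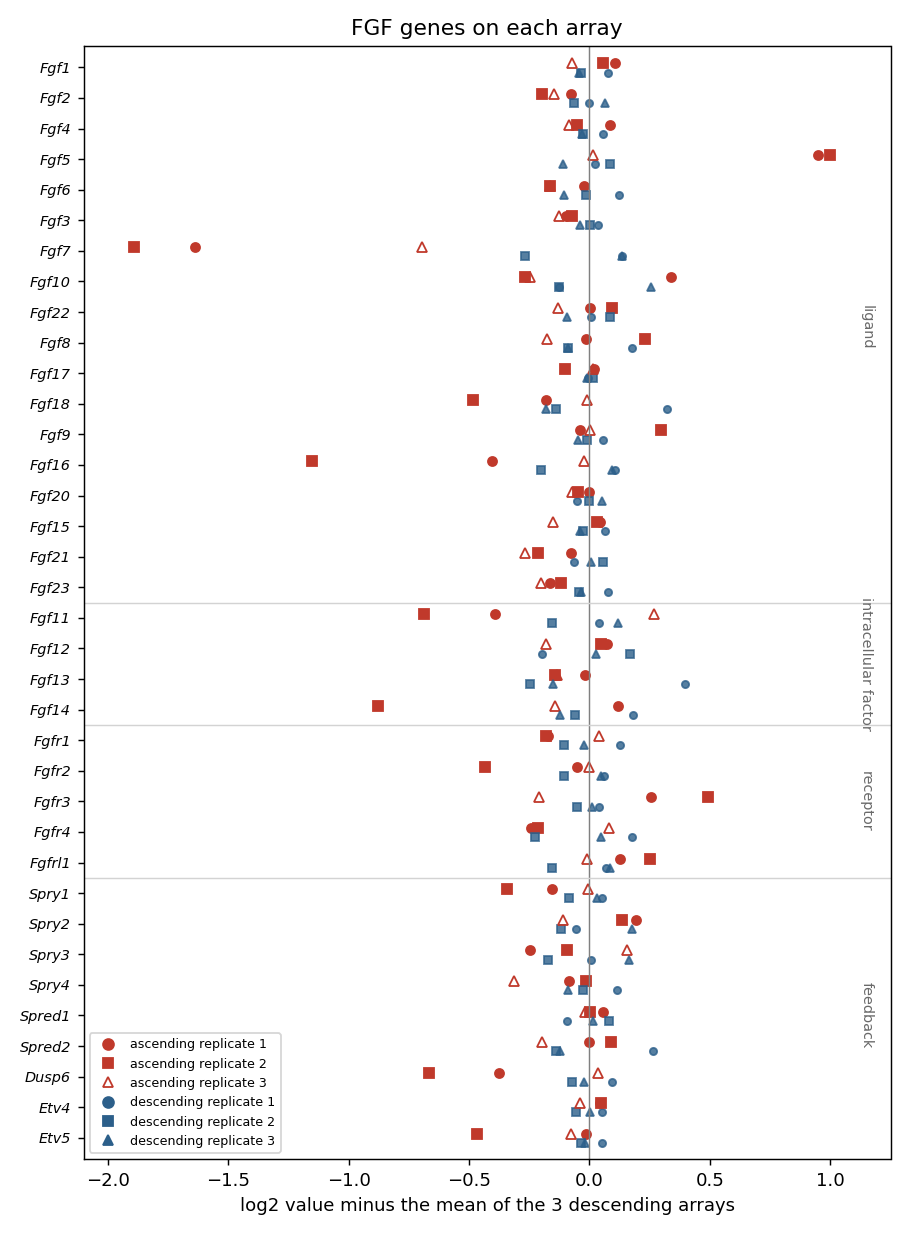
Each of the 36 FGF genes on each array, as log2 value minus the mean of the 3 descending arrays (x axis), with the ascending arrays above the descending arrays in each row and ascending replicate 3 as an open triangle. Fgf7 lies far to the left on ascending replicates 1 and 2 and Fgf5 far to the right, while 25 genes keep within a range of 0.5.

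Among the ligands of the Fgf7 subfamily, which signal mainly to epithelial forms of Fgfr2, Fgf7 (probe set 10475643) had 5.84, 5.59 and 6.78 in ascending aorta, against 7.61, 7.21 and 7.61 in descending aorta. The groups did not overlap, and ascending replicate 3 lay between the other ascending arrays and the descending arrays. Its means were 6.07 ± 0.63 in ascending and 7.48 ± 0.23 in descending aorta (SD, n = 3 each). The difference was -1.41 ± 0.29 (SE), a 2.65-fold lower level (adjusted p = 0.53 by limma). By unadjusted p it ranked 16 among 19938 genes, and 28 genes had a lower difference. Without ascending replicate 3 it fell by 1.76 ± 0.15 (SE), or 3.40-fold (adjusted p = 0.000992 by limma). Leaving out any other single array gave differences from -1.54 to -1.17, and none of those fits passed.

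The other genes of that subfamily also had a lower ascending mean, by 0.10 or less, and none passed. Fgf10, a mesenchymal factor needed for lung and limb outgrowth, had 8.49, 7.88 and 7.91 in ascending aorta, against 8.03, 8.03 and 8.41 in descending aorta. Its highest value in each segment stood apart from the other values there, and the groups overlapped (difference -0.06 ± 0.18, SE). Fgf22 lay between 7.46 and 7.68 in ascending and between 7.49 and 7.67 in descending aorta, and the difference was -0.01. Fgf3 differed by -0.10, with all ascending values between 6.52 and 6.57 and all descending values between 6.61 and 6.68.

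Of the Fgf4 subfamily, Fgf5 (probe set 10523490), known in mouse for ending the growth phase of hair, had 8.32, 8.37 and 7.39 in ascending aorta, against 7.40, 7.46 and 7.27 in descending aorta. Ascending replicates 1 and 2 were high and close together, and ascending replicate 3 lay within the descending range. The means were 8.03 ± 0.55 in ascending and 7.37 ± 0.10 in descending aorta (SD, n = 3 each), a difference of 0.65 ± 0.25 (SE; adjusted p = 0.53 by limma). Without ascending replicate 3, Fgf5 rose by 0.97 ± 0.10 (SE), or 1.96-fold (adjusted p = 0.00188 by limma). Leaving out ascending replicate 1 gave 0.51, and leaving out ascending replicate 2 gave 0.48. Fgf4 and Fgf6, factors of the early embryo and of skeletal muscle, differed by -0.02 and -0.12.

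Fgf16, an X-linked member of the Fgf9 subfamily with a role in the growing heart, had 7.70, 6.95 and 8.08 in ascending aorta, against 8.21, 7.90 and 8.20 in descending aorta. Ascending replicates 1 and 2 lay below all descending arrays, and ascending replicate 3 lay among them. The means were 7.58 ± 0.57 in ascending and 8.10 ± 0.18 in descending aorta (SD, n = 3 each), a difference of -0.53 ± 0.26 (SE; adjusted p = 0.56 by limma). Without ascending replicate 3 the difference was -0.78 ± 0.21 (SE; adjusted p = 0.0864 by limma), and without ascending replicate 2 it was -0.22, so a large part of it rested on that array. Fgf9, which epicardium and endocardium send to the myocardium, reached 7.59 on ascending replicate 2 and lay between 7.25 and 7.35 on the other arrays. Fgf20 kept between 6.13 and 6.26 on all arrays.

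**Figure D2:**
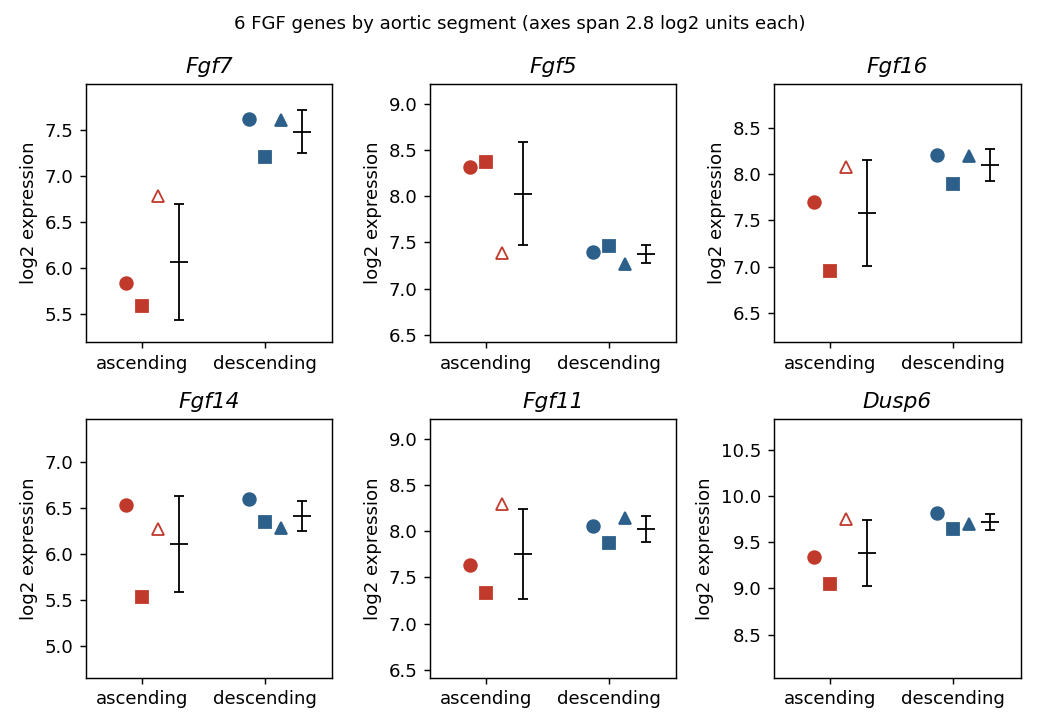
Log2 expression of Fgf7, Fgf5, Fgf16, Fgf14, Fgf11 and Dusp6 on each ascending (left) and descending (right) array, with circles, squares and triangles for replicates 1, 2 and 3 and black bars for the mean ± SD of 3 arrays. Only Fgf7 has no overlap between the segments, and for Fgf5, Fgf16 and Dusp6 the open triangle of ascending replicate 3 lies at the descending level.

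The Fgf8 subfamily, which acts in the pharyngeal arches, brain and skeleton, did not separate the segments over all 6 arrays. Fgf8, whose loss in mouse disturbs the outflow tract and arch arteries, had 8.13, 8.37 and 7.96 in ascending aorta, against 8.32, 8.05 and 8.05 in descending aorta. The 2 segments spanned about the same levels (difference 0.01 ± 0.13, SE). Fgf18, a factor of cartilage and lung, had 10.06, 9.76 and 10.23 in ascending aorta, against 10.57, 10.11 and 10.06 in descending aorta. The difference was -0.23 ± 0.17 (SE), with descending replicate 1 the highest array. Without ascending replicate 3 the difference was -0.33 ± 0.17 (SE) and the remaining arrays did not overlap, though ascending replicate 1 and descending replicate 3 nearly coincided (adjusted p = 0.382 by limma). Fgf17 lay between 6.84 and 6.96 on all arrays.

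Fgf2, which leaves cells without a signal peptide and drives growth of endothelium and smooth muscle, had 8.86, 8.74 and 8.79 in ascending aorta, against 8.94, 8.87 and 9.003 in descending aorta. The groups did not overlap, though the highest ascending and the lowest descending value nearly met, and the difference was -0.14 ± 0.08 (SE; adjusted p = 0.581 by limma). Fgf1, the other member of its subfamily, differed by 0.03. Of the endocrine factors, which need Klotho proteins and act at a distance, Fgf21 differed by -0.18 and Fgf23 by -0.16, and neither overlapped. Fgf21 lay between 6.07 and 6.39 and Fgf23 between 6.70 and 6.98, below all array medians (7.14 to 7.22). Fgf15, which signals from gut to liver and is also expressed in the pharyngeal region, differed by -0.03. Adjusted p-values of the endocrine factors lay between 0.538 and 0.93 by limma.

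The intracellular factors Fgf11 to Fgf14 stay inside cells and bind voltage-gated sodium channels. All 4 had a lower mean in ascending aorta over all 6 arrays, with differences from -0.30 to -0.02, where 43.8% of all genes had a higher one, and none passed. Fgf11 had 7.63, 7.34 and 8.29 in ascending aorta, against 8.06, 7.87 and 8.14 in descending aorta. Ascending replicate 3 was the highest of all arrays and the other ascending arrays the lowest. The difference was -0.27 ± 0.23 (SE), and -0.54 ± 0.13 (SE) without ascending replicate 3 (adjusted p = 0.0585 by limma). Fgf14 had 6.53, 5.53 and 6.27 in ascending aorta, against 6.59, 6.35 and 6.29 in descending aorta. Its difference of -0.30 ± 0.24 (SE) rested on ascending replicate 2, and without that array it was -0.01. Fgf13, on the X chromosome, had 8.41 on descending replicate 1 and 7.76 to 7.99 on the other arrays. Fgf12 overlapped between segments, and its difference of -0.02 was 0.06 without ascending replicate 3.

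Of the receptors, Fgfr1, the main receptor of mesenchyme, had 11.4, 11.4 and 11.6 in ascending aorta, against 11.7, 11.5 and 11.5 in descending aorta. The difference was -0.10 ± 0.10 (SE), within the spread of the arrays. It moved to -0.18 when ascending replicate 3 was left out and to -0.04 when descending replicate 1 was. Fgfr2, the receptor whose epithelial form binds Fgf7 and Fgf10, had 9.58, 9.20 and 9.63 in ascending aorta, against 9.69, 9.53 and 9.68 in descending aorta. Ascending replicate 2 was low and the rest were alike, and without it the difference of -0.16 ± 0.13 (SE) became -0.03. Fgfr3, known for restraining growth of cartilage, had 8.28, 8.52 and 7.82 in ascending aorta, against 8.06, 7.97 and 8.04 in descending aorta. Ascending replicates 1 and 2 lay above and ascending replicate 3 below all descending arrays. The difference was 0.18 ± 0.17 (SE), and 0.37 ± 0.10 (SE) without ascending replicate 3 (adjusted p = 0.0966 by limma). Leaving out ascending replicate 2 gave 0.02.

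Fgfr4 differed by -0.13 ± 0.13 (SE) and overlapped between segments, with -0.24 without descending replicate 2 and -0.04 without descending replicate 1. Fgfrl1, a receptor that lacks the kinase domain, had 10.19, 10.31 and 10.05 in ascending aorta, against 10.13, 9.91 and 10.15 in descending aorta. The groups overlapped, with a difference of 0.12 ± 0.10 (SE), which became 0.19 if ascending replicate 3 was left out and 0.05 if descending replicate 2 was. Adjusted p-values of the 5 receptor genes lay between 0.681 and 0.768 by limma over all 6 arrays. Each receptor gene was read from 1 probe set, so its splice forms were not told apart.

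Of the feedback genes, Dusp6 (probe set 10366043), which removes phosphate from ERK, had 9.34, 9.05 and 9.76 in ascending aorta, against 9.82, 9.65 and 9.70 in descending aorta. Ascending replicates 1 and 2 were the lowest arrays, and ascending replicate 3 lay among the descending arrays. The means were 9.38 ± 0.35 in ascending and 9.72 ± 0.09 in descending aorta (SD, n = 3 each), a difference of -0.34 ± 0.17 (SE; adjusted p = 0.56 by limma). It fell by 0.52 ± 0.12 (SE), or 1.44-fold, without ascending replicate 3 (adjusted p = 0.0465 by limma). Without ascending replicate 2 the difference was -0.17. When descending replicate 1 was left out together with ascending replicate 3, it was -0.47 and no longer passed (adjusted p = 0.135 by limma).

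The Sprouty genes, which hold back Ras and ERK signalling, differed less. Spry1 had 9.36, 9.17 and 9.51 in ascending aorta, against 9.57, 9.43 and 9.54 in descending aorta. As for Dusp6, ascending replicates 1 and 2 were the lowest arrays, and the difference was -0.17 ± 0.10 (SE; adjusted p = 0.611 by limma). Leaving out ascending replicate 3 gave -0.25, and leaving out ascending replicate 2 gave -0.08. Spry2 had 9.14, 9.07 and 8.83 in ascending aorta, against 8.88, 8.82 and 9.12 in descending aorta, and overlapped (difference 0.07 ± 0.12, SE). Spry4 differed by -0.14 ± 0.10 (SE), with ascending replicate 3 the lowest array at 9.01. Spry3 differed by -0.06, and its sign turned when ascending replicate 1 or descending replicate 3 was left out. Spred1 differed by 0.01 and Spred2 by -0.04, and both changed sign when single arrays were left out. The second Spred2 probe set gave 0.26 ± 0.14 (SE), so the probe sets of that gene disagreed in direction.

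Etv5, an Ets factor induced by FGF signalling, had 8.33, 7.88 and 8.27 in ascending aorta, against 8.39, 8.31 and 8.32 in descending aorta. Ascending replicate 2 was low, and without it the difference of -0.19 ± 0.12 (SE) was -0.05. The probe set chosen by its mean carries a number that lies among probe sets of chromosome 10 genes (10 of 10 neighbours), whereas Etv5 is on chromosome 16. The Etv5 probe set whose neighbours are on chromosome 16 also differed by -0.19 ± 0.16 (SE). Etv4, its close relative, lay between 7.08 and 7.19 on all arrays, with a difference of 0.02.

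Leaving out ascending replicate 3 let 3 of 36 members pass, or 8.33%, against 4.68% of all genes. Of these, 1 was higher (2.07% of all genes) and 2 were lower (2.61%). At an unadjusted p under 0.05 there were 7 members, or 19.4%, against 17.2% of all genes. For 14 members, or 38.9%, both remaining ascending arrays were outside the descending range on the same side, against 34.5% of all genes, and 11 of the 14 were lower, or 30.6% of the members against 18.9% of all genes. The count of 3 calls is small to set against 4.68%. The position of ascending replicate 3, as a share of the way between the descending mean (0) and the mean of the other ascending arrays (1), was 0.39 for Fgf7, 0.01 for Fgf5, 0.03 for Fgf16 and -0.07 for Dusp6. Fgf7 was the only one of these 4 for which it lay outside the descending range. The median distance of the members from the descending mean was 0.09 on ascending replicate 1, 0.19 on replicate 2 and 0.12 on replicate 3, against 0.12, 0.14 and 0.09 over all genes.

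**Figure D3:**
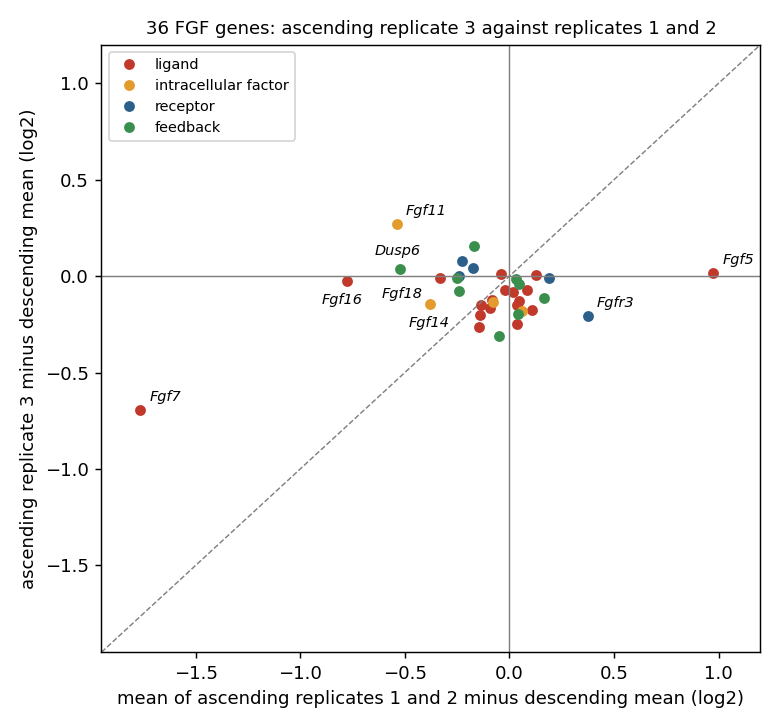
The 36 FGF genes by their mean on ascending replicates 1 and 2 (x axis) and their value on ascending replicate 3 (y axis), both minus the descending mean on the log2 scale, coloured by role. On the dashed line all ascending arrays would agree. Fgf5, Fgf16 and Dusp6 lie near 0 on the y axis, and Fgf7 lies between 0 and the line.

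The wider pathway was read from lists chosen by function. Over all 6 arrays 0 genes of any list passed in limma. Among all genes, 43.8% had a higher ascending mean and 9.29% an unadjusted p under 0.05 by limma. Without ascending replicate 3, 2.07% of all genes were called higher and 2.61% lower. Of 26 measured genes for co-receptors and heparan sulfate, 13 had a higher and 13 a lower ascending mean (median difference -0.01), and 2 had an unadjusted p under 0.05. When ascending replicate 3 was left out, 4 of them rose and 0 fell. These were Flrt3, a membrane protein that binds FGF receptors (0.69), the heparan sulfate 6-O-sulfotransferase genes Hs6st2 (0.63) and Hs6st3 (0.48), and the syndecan gene Sdc4 (0.41). Flrt1 differed by -0.38 and Sdc3 by 0.25 over all 6 arrays.

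Of 16 measured adaptors and kinases of the ERK cascade, 7 had a higher and 9 a lower ascending mean (median difference -0.03), and 0 passed in limma with or without ascending replicate 3, with 2 at an unadjusted p under 0.05 over all 6 arrays. Among them Map2k2, a kinase of ERK, differed by 0.27, and Plcg1, a phospholipase bound by FGF receptors, by -0.27. Braf differed by -0.19 and the adaptor gene Gab1 by -0.14.

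Of 25 other ERK feedback and response genes, 9 had a higher and 16 a lower ascending mean (median difference -0.08), and 2 had an unadjusted p under 0.05. In the fit without ascending replicate 3, 1 rose and 3 fell. Etv1, the third Ets factor of the Etv4 group, rose by 0.81 ± 0.13 (SE) there, while the cyclin gene Ccnd1 fell by 0.51, the ERK phosphatase gene Dusp7 by 0.48 and Rasa3, which inactivates Ras, by 0.47. Egr1, an immediate early gene, differed by -0.40 over all 6 arrays. Etv1 and Dusp6 thus moved in opposite directions in the same fit.

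Markers of other cell types differed between the same arrays. Among all genes, 43.8% had a higher ascending mean, and 2.07% were called higher and 2.61% lower without ascending replicate 3. The vessels were profiled in bulk, so fewer cells of a type and less RNA per cell cannot be told apart. The mean level of 9 mesothelial and epicardial markers was 10.09, 10.18 and 9.06 in ascending aorta, against 8.70, 8.76 and 8.98 in descending aorta. Of these genes 8 had a higher ascending mean and 6 rose without ascending replicate 3, among them the transcription factor gene Tcf21 (1.81) and the mesothelial genes Upk1b (2.70), Upk3b (2.26) and Lrrn4 (0.86). Cardiac muscle markers averaged 8.28 to 9.08 in ascending and 8.18 to 8.43 in descending aorta, with 14 of 15 higher by mean and 3 called higher without ascending replicate 3, including Tnnt2 and Tnni1. Second heart field genes averaged 9.11 to 9.91 in ascending and 9.04 to 9.21 in descending aorta, with 7 of 10 higher by mean. Without ascending replicate 3, 4 rose, including Gata4, Hand2 and Tbx20, and 1 fell (Tbx1). Mef2c differed by -0.40 over all 6 arrays, and its ascending values all lay below its descending values.

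Endothelial markers averaged 10.46 to 10.96 in ascending and 11.04 to 11.23 in descending aorta, with 12 of 12 lower by mean and 4 called lower without ascending replicate 3, including Kdr, Emcn and Esam. Macrophage markers averaged 7.78 to 8.93 in ascending and 8.74 to 8.83 in descending aorta, with 10 of 12 lower by mean and 3 called lower in that fit, including Lyve1 and Mrc1. Neuron and Schwann cell markers averaged 7.58 to 7.83 in ascending and 7.86 to 8.08 in descending aorta, with 8 of 9 lower by mean and 1 call in each direction (Elavl4 higher, Fabp7 lower). Pharyngeal and foregut epithelium averaged 7.19 to 7.61 in ascending and 7.20 to 7.24 in descending aorta, with 7 of 11 higher and 4 lower by mean. The keratin genes Krt8 and Krt18 rose in that fit. Sox2 (-0.20) and Pax1 (-0.25) had a lower ascending mean over all 6 arrays and were not called in that fit. Of 10 smooth muscle genes, 5 had a higher and 5 a lower ascending mean, and 2 rose without ascending replicate 3 (Des and Lmod1). Over all 6 arrays Mylk differed by -0.27, Itga8 by -0.28 and Myh11 by -0.53, and none of these overlapped between segments. The 11 cartilage and skeletal muscle genes averaged 7.49 to 7.62 in ascending and 7.40 to 7.59 in descending aorta. Of them 2 rose (Col9a1 and Acan) and 1 fell (Col2a1) without ascending replicate 3. On ascending replicate 3 the cardiac, second heart field and pharyngeal lists lay within the descending range, as did Fgf5, Fgf16 and Dusp6. For the pharyngeal list ascending replicate 2 (7.191) was close to that range too, and only ascending replicate 1 (7.614) lay above it. The mesothelial, macrophage, and cartilage and skeletal muscle lists lay above the descending range on ascending replicate 3. The endothelial, smooth muscle, and neuron and Schwann cell lists lay below it. The part of these cell types in the levels of Fgf7, Fgf5, Fgf16 and Dusp6 was not tested.

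**Figure D4:**
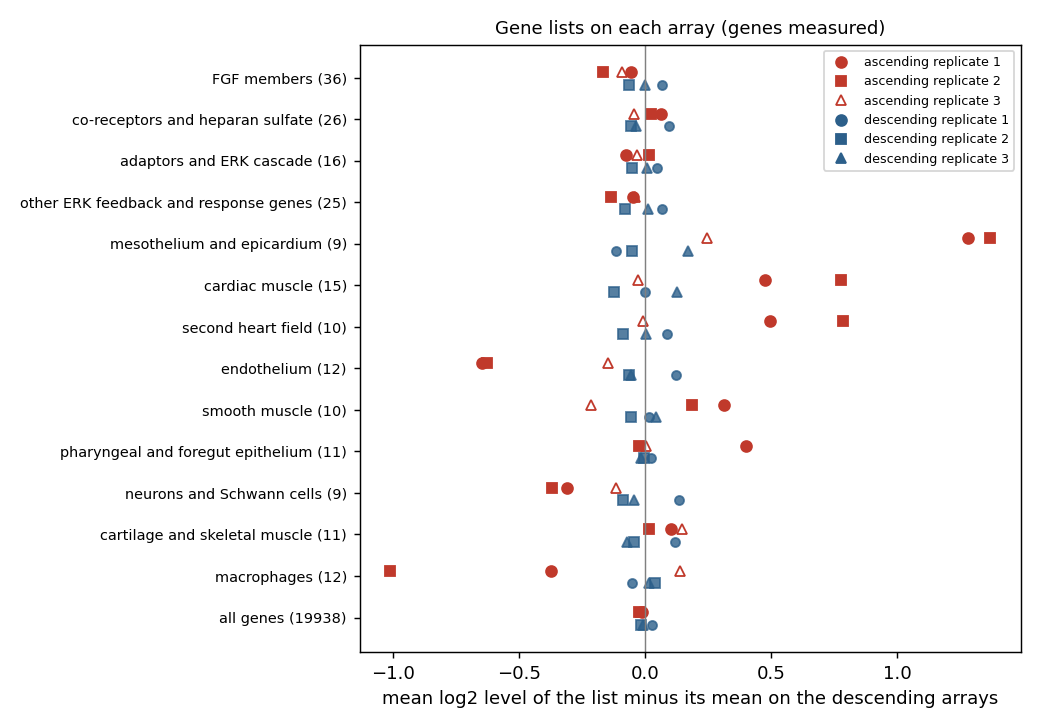
Mean log2 level of each gene list on each array minus its mean on the descending arrays (x axis), with the number of genes measured in brackets, ascending arrays above descending arrays and ascending replicate 3 as an open triangle. The FGF list lies near 0 on all arrays. The mesothelial, cardiac, second heart field, endothelial, macrophage, and neuron and Schwann cell lists are displaced on ascending replicates 1 and 2.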

How the data were processed

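Total RNA of embryonic ascending and descending aorta was extracted with Trizol and labelled with biotin for Affymetrix arrays, per the labels' protocols. The values are log2 expression per probe set, which the authors deposited after RMA (per the submitters' processing notes, which give no settings and also name Partek 6.6). RMA brings the arrays' distributions close together, so a change shared by most genes is largely hidden, and it compresses differences of dim genes. Medians of the deposited values still ran from 7.144 (ascending replicate 1) to 7.217 (descending replicate 1), which bears on small member differences. Of 35556 probe sets, 21789 had 1 gene symbol in the platform annotation, 1621 had several and 12146 had none. The highest-mean probe set per symbol gave 19938 genes. All 36 members matched RefSeq (GRCm38.p6) by Entrez number. Probe sets of paralogs can share sequence.

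Segments were compared with moderated linear models (limma 3.58.1, lmFit and eBayes, R 4.3.3) over all genes, two-sided, without covariates, with Benjamini-Hochberg adjustment at 0.05. With 3 arrays a group, exact permutation cannot reach a p below 0.1 and was not used. Members, lists and alternatives were chosen with earlier results of these data known. Members with a difference of at least 0.3 and those that passed in any fit are described in full. So are most receptors and several feedback genes, whereas Fgfr4, Spry3, Spry4, Spred1, Spred2 and Etv4 are given more briefly. Up to 4 genes per list are named by smallest p, plus some that passed without ascending replicate 3. The latter were added after their values were seen. The script was tested on simulated data. Python 3.11.15, pandas 2.3.3 and matplotlib 3.10.9 prepared sequences and plots. The number of arrays limits the precision of all values.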

Additional observations from a re-analysis of the deposited data

How the results depend on the processing

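All settings without a left-out array gave 0 genes and 0 FGF members at an adjusted p under 0.05 in limma (at an unadjusted p under 0.05, 1852 genes and 2 members over all 6 arrays, 1806 and 2 with trend and robust variance, 2759 and 3 with array weights). Leaving out each array in turn gave 0 to 933 genes, 0 to 3 members, a median member difference of -0.123 to -0.0565 and 8 to 15 members with a higher ascending mean. All nonzero counts of calls came from fits without ascending replicate 3. Leaving out descending replicate 1 with it, an alternative chosen after seeing the data, gave 469 genes, 2 members (Fgf5 at 0.985 and Fgf7 at -1.70) and 14 higher members. The count of higher members was 15 after repeated quantile normalization, 14 with array weights and 5 of 18 measured above the 50th percentile of mean expression. With median-centred arrays it was 9, the same as in the main fit. Members near 0 changed sign. Spred2 was 0.0425 without ascending replicate 3, 0.0944 without descending replicate 1, 0.111 as the mean of its probe sets, 0.048 with array weights and 0.175 without those 2 arrays, where Spry4 was 0.00934 and Spred1 -0.0175. Spred1 was -0.00707 without ascending replicate 1. Leaving out single arrays gave -0.17 to 0.0321 for Spry3 (0.0218 without descending replicate 3), -0.198 to -0.0486 for Spry4, -0.0329 to 0.0537 for Spred1, -0.108 to 0.0944 for Spred2 and -0.0107 to 0.0456 for Etv4, which was 0.0726 without those 2 arrays. The cause was not tested. With the replicate number as a block, 0 genes and 0 members passed (1623 genes and 3 members at an unadjusted p under 0.05) and the median member difference was -0.0798. Deviations of same-numbered arrays from their segment means correlated at r of -0.0798, -0.0548 and 0.024. With 3 arrays a segment and ascending replicate 3 apart from the others, these values cannot decide whether same-numbered arrays were paired. No detection call was used, so RMA values of dim members limit what their differences show.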
